A study of Gallus gallus with 6 samples.

Results

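The RUNX, FOXO and ETS regulators examined here are 10 transcription factor genes: RUNX1, RUNX2, RUNX3 and their partner CBFB, FOXO1 and FOXO3, and ETS1, ETS2, FLI1 and ERG. Every probe set whose annotation held 1 of these symbols alone was taken, which gave 20 of the 38535 probe sets in the table. They covered 9 of the 10 genes. No probe set was annotated to RUNX3 here, and it was not analysed. The cells were of the DT40 line, a chicken lymphoma line of bursal B cell origin. In 3 samples the genotype was wild type, and in the other 3 it was Pax5-/-, obtained with 1 targeting construct carrying a neo cassette and 1 carrying a bsr cassette, each introduced by electroporation and followed by selection of stable clones. Both groups were given as female and shared 1 culture medium, and the labels name no other allele or agent. Whether the Pax5-deficient samples came from 1 clone is not stated, and the steps of transfection and cloning cannot be told apart from the loss of PAX5. Nothing says that the samples of a group came from separate cultures, so each p-value reflects only how much these samples vary, which may be technical.

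RUNX proteins bind DNA through their Runt domain and do so more stably in a dimer with CBFβ, the product of CBFB, which does not itself contact DNA. RUNX1 is needed for blood stem cells to arise and, in mice, for early B cell development together with EBF1 and PAX5. FOXO proteins are held in the cytoplasm when AKT phosphorylates them, so that signalling through PI3 kinase switches them off, and in mouse B cell precursors FOXO1 drives the recombinase genes. ETS proteins recognise a short GGAA core. ETS1 restrains plasma cell differentiation in mice, FLI1 is known from megakaryocytes and B cells, and ERG from blood stem cells and endothelium.

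FOXO1 and RUNX1 were the members with the largest falls in Pax5-deficient cells, by 5.36-fold and 3.31-fold on their brightest probe sets. CBFB was 1.31-fold higher on its brightest probe set, in a call lost under several of the alternatives. ETS1 gave 1 probe set that fell 2.27-fold beside 5 that did not pass. FLI1 and FOXO3 did not pass, and RUNX2, ETS2 and ERG lay at or next to background. Of the 20 member probe sets 4 were lower, 1 was higher and 15 did not pass an adjusted p of 0.05 (limma, Benjamini-Hochberg over the 38439 probe sets tested). Among all probe sets 10.6% passed, 6.7% lower and 3.93% higher. The values of the groups did not overlap for 6 member probe sets, 4 lower and 2 higher, against 27.4% of all probe sets. The median difference, Pax5-deficient minus wild type on the log2 scale, was -0.03 over the member probe sets and 0.03 over all of them. Each gene was also represented by its brightest probe set over all 6 samples, which for ETS1 is not the one that fell. By these, 2 of the 9 genes were lower and 1 was higher, while 9.74% of 13009 named genes were lower and 6.01% higher. These shares include dim genes. With dim probe sets left out, 1283 of 8917 named genes were lower and 816 higher, which are larger shares. Of the named genes called, 61.8% were lower, and 51.8% after quantile normalization. The samples are of 1 cell line measured in bulk, so a change in all cells and a change in part of them cannot be told apart.

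**Figure D1:**
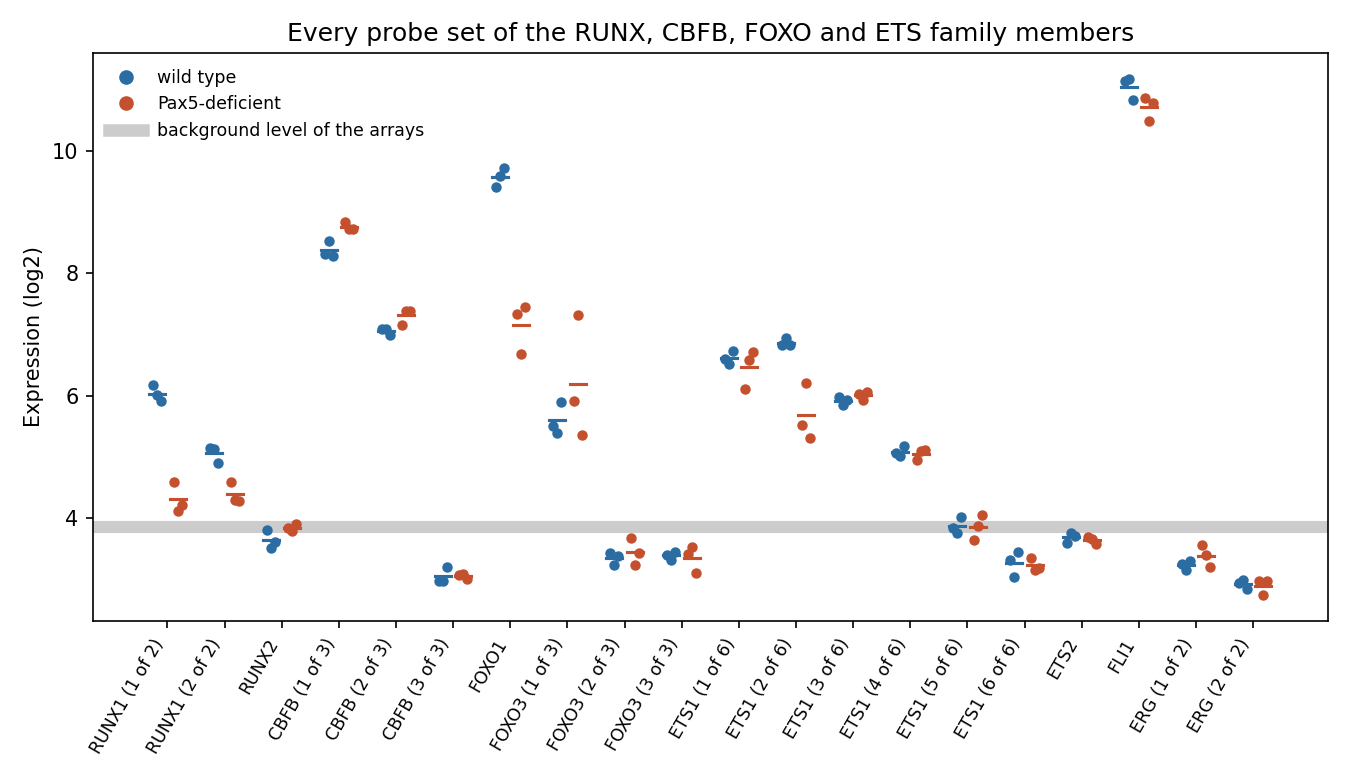
Expression on the log2 scale (vertical axis) of each of the 20 member probe sets (horizontal axis, numbered from brightest to dimmest within a gene), with 1 point per sample, short lines at group means and a grey band over the background levels of the 6 arrays. FOXO1 and both RUNX1 probe sets show wild-type samples above all Pax5-deficient samples, whereas 7 probe sets lie at background in all 6 samples.

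As series-wide background, array medians were between 3.95 and 4.02 on the log2 scale, and 52.4% to 55.0% of probe sets lay above the background of their array, taken as the 95% quantile of 689 virus-directed probe sets (mean 3.83). PAX5 itself was called on 1 of 4 probe sets, with values of 4.55, 4.41 and 4.30 in wild-type and 3.86, 3.55 and 3.34 in Pax5-deficient samples, the last 3 at background. Its brightest probe set gave 4.60, 4.49 and 4.65 against 4.81, 4.77 and 4.90, higher without overlap but not called (0.24 ± 0.09, limma adjusted p = 0.136), and the other 2 were at background. The sources used here do not place these probe sets relative to the replaced exons, so they do not check the disruption. The labelled cell type was examined with 18 measured B cell markers, of which 16 were above background in every sample, 12 fell, 1 rose (TNFRSF13B, named after its values were seen) and 5 did not pass. Their summed linear level ran from 26450 to 30281 in wild-type and from 17214 to 19089 in Pax5-deficient samples. EBF1, a defining factor of the lineage, did not exceed background in any Pax5-deficient sample, at least 27.9-fold lower.

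RUNX1, on chromosome 1, has 2 probe sets on the array. The brighter gave 6.18, 6.01 and 5.91 on the log2 scale in the wild-type samples and 4.60, 4.11 and 4.22 in the Pax5-deficient samples. All Pax5-deficient values lay below all wild-type values, yet each remained above the background of its array. The level fell by 1.73 ± 0.14 (SE, 3 samples a group; limma adjusted p = 9.89e-05), with a 95% interval of -2.04 to -1.41. The dimmer probe set gave 5.14, 5.14 and 4.90 against 4.59, 4.29 and 4.27. It too showed no overlap, and it fell by 0.67 ± 0.12 (adjusted p = 0.00663), with an interval of -0.94 to -0.40. The fall on the brighter probe set was thus larger by 1.06 on the log2 scale. Within each sample the difference between both probe sets was 0.87 to 1.05 in wild-type and -0.19 to 0.00 in Pax5-deficient samples. An exact two-sided permutation test over the 6 samples gave p = 0.1, the smallest this design allows (0.24 adjusted over 12 such pairs). RMA compresses differences of dim probes, and both probe sets approached background in the Pax5-deficient samples. The part this plays in the sizes of both falls was not tested.

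RUNX2, on chromosome 3, is the regulator of bone formation among the RUNX genes. Its single probe set gave 3.80, 3.51 and 3.60 in wild-type and 3.83, 3.78 and 3.91 in Pax5-deficient samples. The groups overlapped, only 1 of the 6 samples was above background, and the difference did not pass (adjusted p = 0.283).

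CBFB, on chromosome 11, has 3 probe sets. The brightest gave 8.32, 8.52 and 8.29 in wild-type and 8.84, 8.72 and 8.73 in Pax5-deficient samples, without overlap. It was higher by 0.38 ± 0.10 log2 units (SE, 3 samples a group; limma adjusted p = 0.0353). This call was lost without any 1 of Pax5-deficient replicates 1, 2 and 3 (adjusted p = 0.0932, 0.0527 and 0.0795) or of wild-type replicates 1 and 3 (0.114 and 0.131), and when arrays were centred on their medians. The second CBFB probe set gave 7.08, 7.09 and 6.99 against 7.16, 7.38 and 7.39, again without overlap and in the same direction. Its difference of 0.26 ± 0.10 did not pass (adjusted p = 0.142), though it did after quantile normalization (0.37, adjusted p = 0.0328). The third was at background in all 6 samples. RUNX1 was therefore lower while neither CBFB probe set above background was lower.

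**Figure D2:**
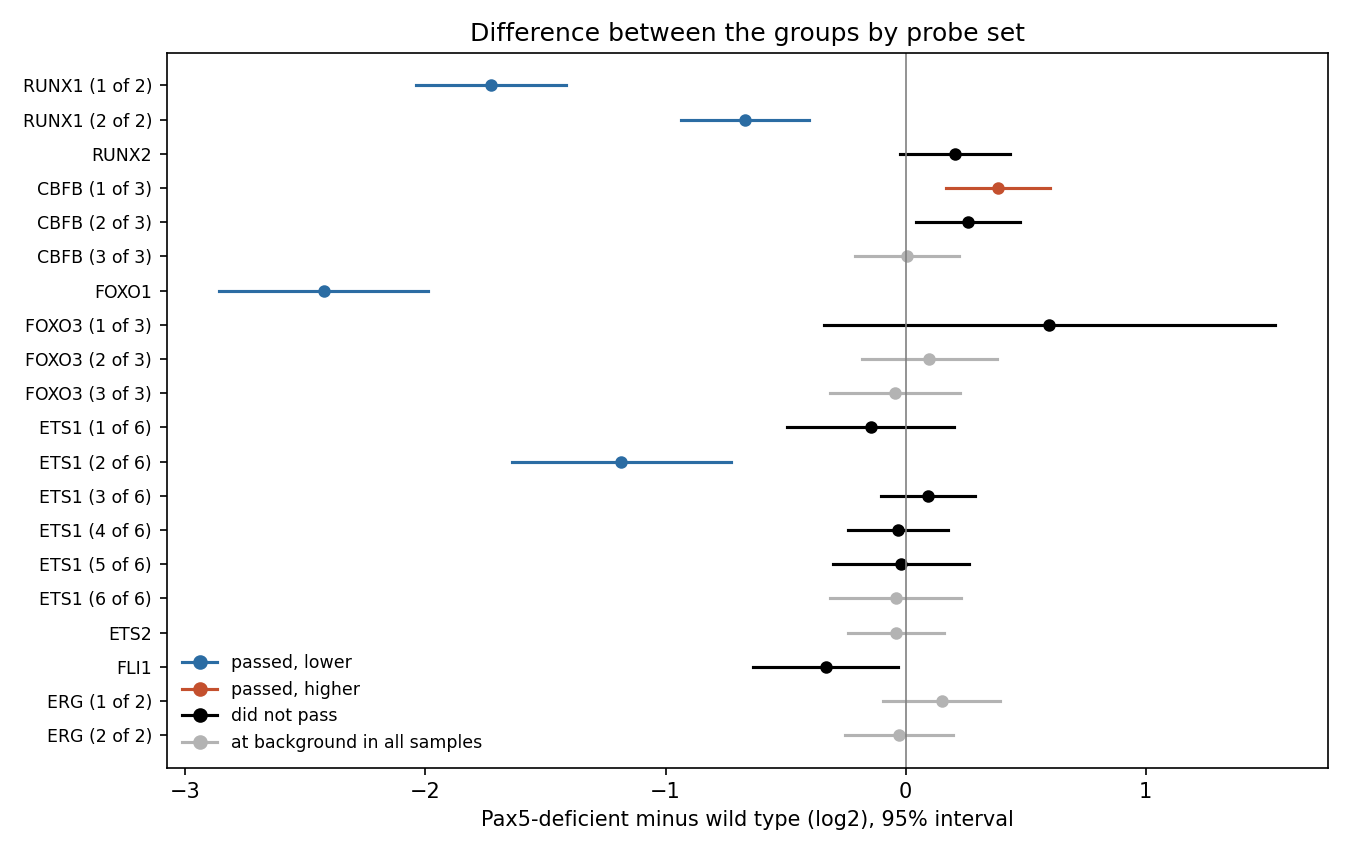
Difference between Pax5-deficient and wild-type samples on the log2 scale (horizontal axis, points) with limma's 95% interval (lines) for each member probe set (vertical axis, numbered from brightest to dimmest within a gene). FOXO1, both RUNX1 probe sets and the second ETS1 probe set lie below 0, and the brightest CBFB probe set lies above 0 at 0.38.

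FOXO1, on chromosome 1, has 1 probe set, and it showed the largest change of the members. Wild-type samples gave 9.42, 9.59 and 9.73 on the log2 scale, and Pax5-deficient samples gave 7.34, 6.68 and 7.45. Even the highest Pax5-deficient sample lay far below the lowest wild-type sample, and all 6 stayed above background. The level fell by 2.42 ± 0.19 (SE, 3 samples a group; limma adjusted p = 9.41e-05), with a 95% interval of -2.86 to -1.99. The spread was wider in Pax5-deficient samples (SD 0.42 against 0.16), where replicate 2 was the lowest. Leaving out any 1 sample gave differences of -2.57 to -2.18, all of them called.

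FOXO3, on chromosome 3, is a close relative of FOXO1 that the same kinases control. Its brightest probe set gave 5.50, 5.39 and 5.90 in wild-type and 5.91, 7.31 and 5.36 in Pax5-deficient samples. Pax5-deficient replicate 2, which had the lowest FOXO1 value, had the highest FOXO3 value, and the groups overlapped. The difference of 0.60 ± 0.41 did not pass (limma adjusted p = 0.469, 3 samples a group), and its 95% interval ran from -0.34 to 1.54. Without that replicate the difference was 0.04. The other 2 FOXO3 probe sets were at background throughout.

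ETS1, on chromosome 24, has 6 probe sets, 5 of them above background in at least 1 sample. The second brightest gave 6.83, 6.94 and 6.82 in wild-type and 5.53, 6.21 and 5.30 in Pax5-deficient samples. The groups did not overlap, and replicate 2 was the least reduced of the Pax5-deficient samples. It fell by 1.18 ± 0.20 log2 units (SE, 3 samples a group; limma adjusted p = 0.00572), with an interval of -1.64 to -0.73, and the difference was -1.45 without Pax5-deficient replicate 2. The brightest ETS1 probe set gave 6.60, 6.52 and 6.74 against 6.11, 6.59 and 6.72, a difference of -0.15 ± 0.15 that did not pass (adjusted p = 0.664). Brightness was ranked over all 6 samples, so the fall itself lowered the rank of the second. In wild-type samples alone the second was the brighter, with a mean of 6.86 against 6.62. The third and the fourth, with wild-type means of 5.92 and 5.08, had differences of 0.09 ± 0.09 and -0.03 ± 0.09. Their 95% intervals, -0.10 to 0.29 and -0.24 to 0.18, do not reach the fall seen on the second. The fifth, near background, had a difference of -0.02 ± 0.12, and the sixth was at background in all samples.

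The disagreement among the ETS1 probe sets was examined within samples. The second minus the third was 0.86 to 1.09 in wild-type and -0.76 to 0.28 in Pax5-deficient samples, a shift of -1.28. The second minus the fourth and the second minus the fifth shifted by -1.15 and -1.16, and the brightest minus the second by 1.04. Each of these 4 pairs gave p = 0.1 in the exact two-sided permutation test, the smallest possible with 3 against 3 (adjusted 0.24 over 12 pairs). All 4 share the second probe set, so they are not separate observations, and the comparison was chosen after the values were seen. The other 6 ETS1 pairs shifted by -0.24 to 0.12, with p from 0.2 to 0.9. The second probe set carries a suffix that Affymetrix uses for probes shared by alternative transcripts of 1 gene, and the third and the fourth carry a different suffix. The sources used here do not say which transcripts each probe set reads. The part this plays in the disagreement was not tested.

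**Figure D3:**
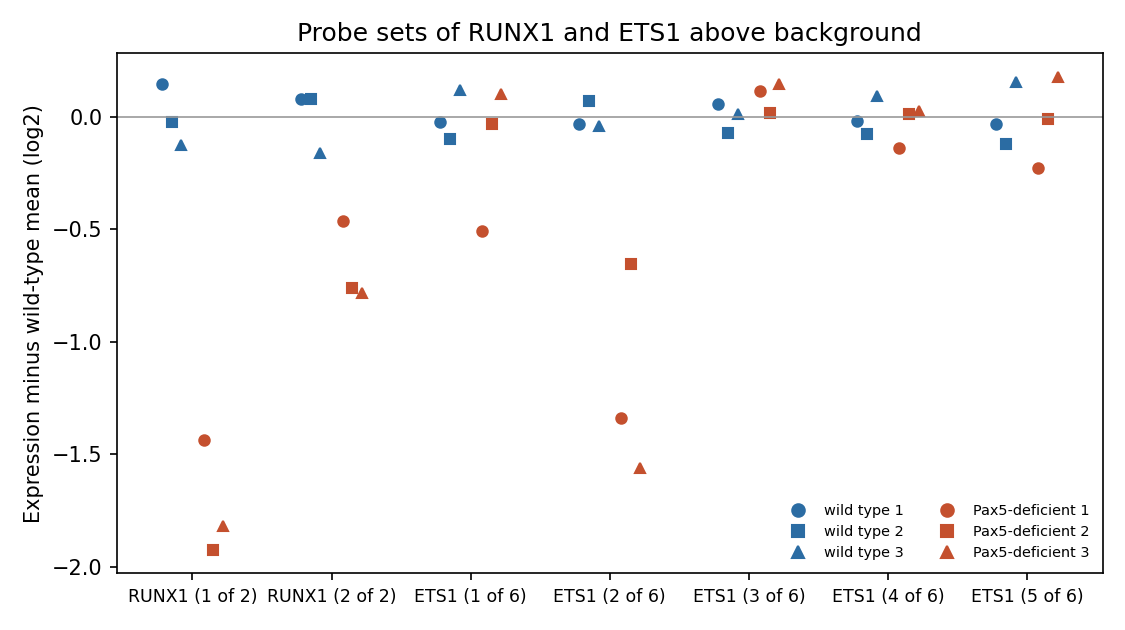
Expression minus the wild-type mean of the same probe set on the log2 scale (vertical axis) for the RUNX1 and ETS1 probe sets above background in at least 1 sample (horizontal axis), with 1 symbol per sample. Both RUNX1 probe sets and the second ETS1 probe set have all Pax5-deficient samples below the wild-type samples, and the other ETS1 probe sets do not.

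FLI1, the neighbour of ETS1 on chromosome 24, gave the highest signal of the member probe sets, although signals of different probe sets are not comparable as levels. Wild-type samples gave 11.14, 11.18 and 10.83 on the log2 scale and Pax5-deficient samples 10.87, 10.49 and 10.79. The groups overlapped at 1 sample each, and the difference of -0.33 ± 0.13 did not pass (limma adjusted p = 0.177, 3 samples a group; 95% interval -0.64 to -0.03). ETS2 and ERG lie next to each other on chromosome 1. ETS2, a widely expressed ETS factor, gave 3.60, 3.76 and 3.70 in wild-type and 3.70, 3.66 and 3.57 in Pax5-deficient samples, all at background. The brighter of the 2 ERG probe sets gave 3.25, 3.15 and 3.30 against 3.55, 3.40 and 3.21, also at background, as was the other.

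Neighbours were taken as the 3 protein-coding genes on either side of each measured member, in the gene order of the GRCg7b assembly. Of 37 such genes with a probe set, members left out, 3 were lower and 2 higher, against 9.74% lower and 6.01% higher among all named genes. Of the 5 measured neighbours of RUNX1 none passed, with the closest, SETD4, at -0.49 ± 0.14 (limma adjusted p = 0.0693). TPTE, 3 genes from FOXO1, fell by 2.57 ± 0.21 log2 units (SE, 3 samples a group; adjusted p = 0.000106), while MRPS31 and COG6 on either side of FOXO1 had differences of -0.06 ± 0.10 and 0.07 ± 0.11. SESN1, 2 genes from FOXO3, rose by 1.46 ± 0.12.

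The genes whose 6 values lay nearest to those of FOXO1, by Euclidean distance of log2 values centred on each gene's mean, were MDK, TRIM39.2 and GPR157, at distances of 0.353, 0.386 and 0.401. For the brighter RUNX1 probe set they were TMCO3, CMTM4 and SNAP91, at 0.265, 0.350 and 0.375. With 6 samples in 2 groups this likeness mostly restates a like difference between the groups. MDK, which encodes the growth factor midkine, had a log2 difference of -2.60 ± 0.19, and TMCO3 one of -1.69 ± 0.11.

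Other ETS family factors were read from a list of 23, of which 18 were measured. On their brightest probe sets 3 fell, none rose and 15 did not pass, with a median difference of 0.00 against 0.03 for all named genes. With the mean of a gene's probe sets 1 fell. SPI1, the ETS factor PU.1 of myeloid and B cells, gave 8.98, 9.16 and 9.08 in wild-type and 7.80, 8.11 and 8.19 in Pax5-deficient samples. It fell by 1.04 ± 0.12 log2 units (SE, 3 samples a group; limma adjusted p = 0.000629) and by 1.08 ± 0.10 on its other probe set. ELK4, a partner of serum response factor, fell by 0.85 ± 0.11, and its other 4 probe sets did not pass. ELF1, which B and T cells express, fell by 0.56 ± 0.13, by 0.49 ± 0.09 and by 0.65 ± 0.14 on 3 of 6 probe sets. Of the others, 1 above background in all samples had a difference of 0.08 ± 0.10 that did not pass, and 2 were at background. The first of the 3 calls was lost without Pax5-deficient replicate 2 or 3 or wild-type replicate 2 or 3 (limma adjusted p = 0.0531 to 0.105) and the third without any wild-type replicate (0.0512 to 0.0836), while the second held. GABPA, which activates many housekeeping promoters, and ETV6, a repressor, had differences of -0.13 ± 0.08 and -0.16 ± 0.15 on their brightest probe sets that did not pass. The other GABPA probe sets, above background in all samples, went opposite ways, at -0.30 ± 0.12 and 0.26 ± 0.14, and did not pass either.

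Of 29 other forkhead factors 19 were measured, 4 of which fell, 2 rose and 13 did not pass, with a median of 0.04. With the mean of a gene's probe sets 2 fell and 3 rose. FOXP1, which mouse B cell precursors require, had a mean of 7.18 ± 0.16 (SD) in wild-type and 6.34 ± 0.10 in Pax5-deficient samples, without overlap. It fell by 0.84 ± 0.11 log2 units (SE, 3 samples a group; limma adjusted p = 0.00119). On another probe set FOXP1 fell by 0.49 ± 0.13, a call lost without any 1 of the 6 samples (adjusted p = 0.0573 to 0.14), after quantile normalization (0.0658) and with the robust variance trend (0.0586). FOXM1, which drives genes of mitosis, fell by 0.85 ± 0.10, and the repressor FOXN3 by 0.76 ± 0.08. FOXO4, named after its values were seen, fell by 0.46 ± 0.12 in a call lost after quantile normalization (0.136) and without any 1 sample except Pax5-deficient replicate 1 (0.0627 to 0.137). Its other probe set, above background in all samples, had a difference of 0.03 ± 0.13 that did not pass. The factors that rose were FOXK2, by 0.74 ± 0.17 on its brightest and by 0.85 to 0.96 on 3 dimmer probe sets, and FOXP2, by 0.69 ± 0.11. FOXP2 lay near background in wild-type samples, at 4.00, 3.80 and 3.65, and gave 4.62, 4.54 and 4.37 in Pax5-deficient samples. The dimmest FOXK2 probe set, near background, had a difference of -0.11 ± 0.19 that did not pass. The brightest FOXK2 probe set lost its call when wild-type replicate 1 or 2 was left out (adjusted p = 0.0819 and 0.0887).

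Cofactors and modifiers of RUNX proteins were lower where they passed. Of 25 measured, 6 fell, none rose and 19 did not pass, with a median of -0.12. TLE1, a Groucho corepressor that RUNX proteins recruit, gave 5.29, 5.40 and 5.65 in wild-type and 3.99, 4.12 and 4.47 in Pax5-deficient samples. It fell by 1.25 ± 0.14 log2 units (SE, 3 samples a group; limma adjusted p = 0.000701). AES, a short Groucho-related protein, fell by 2.12 ± 0.32 on its brightest probe set, with Pax5-deficient values of 4.80, 6.27 and 5.68, and its other 3 probe sets did not pass. The acetyltransferase EP300 fell by 0.57 ± 0.09 on its brightest probe set alone of 3. The corepressors NCOR1 and SIN3B both fell by 0.39 ± 0.09 on their brightest probe sets. The other 5 of NCOR1, with differences of -0.30 to 0.01, and the other of SIN3B (-0.25 ± 0.18) did not pass. Both calls were lost after quantile normalization (adjusted p = 0.0643 and 0.0715), with the robust variance trend (0.0541 for each), and without Pax5-deficient replicate 3 or wild-type replicate 2 or 3 (0.0729 to 0.124), that of SIN3B also without wild-type replicate 1 (0.0558). The count of 6 dropped to 3 without Pax5-deficient replicate 3, wild-type replicate 2 or wild-type replicate 3, and with the mean of a gene's probe sets in place of the brightest.

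**Figure D4:**
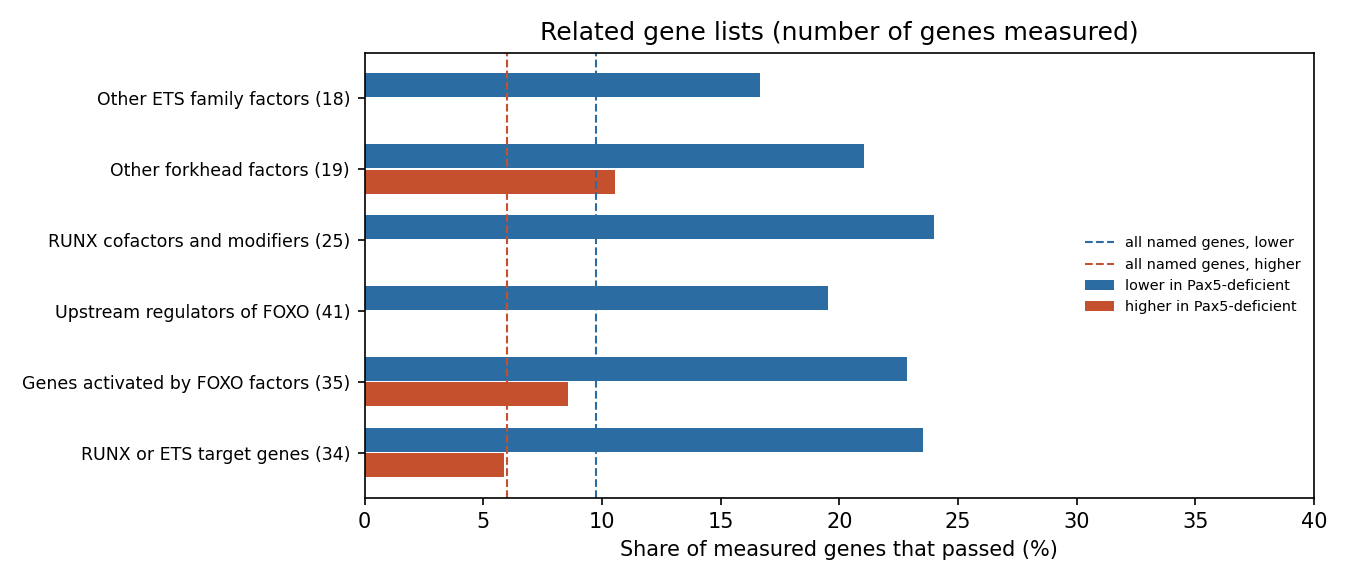
Share of the measured genes of each related list that passed an adjusted p of 0.05 (horizontal axis, percent) in the lower and the higher direction, with dashed lines at the shares over all named genes (9.74% lower, 6.01% higher). The dashed lines include dim genes, and the shares are larger with dim probe sets left out (1283 lower and 816 higher of 8917 named genes). In all 6 lists more genes were lower than higher, except that forkhead factors had 3 of each after quantile normalization, and 2 lower and 3 higher with the mean of a gene's probe sets.

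Regulators upstream of FOXO activity were measured for 41 of 46 listed genes, and 8 fell, none rose and 33 did not pass, with a median of -0.12. With the mean of a gene's probe sets 5 fell and 2 rose. After quantile normalization 3 of them rose, so the absence of rises depends on these choices. PHLPP1, a phosphatase that removes an activating phosphate from AKT, gave 8.18, 8.23 and 8.49 in wild-type and 6.01, 6.13 and 5.89 in Pax5-deficient samples. It fell by 2.29 ± 0.11 log2 units (SE, 3 samples a group; limma adjusted p = 5.76e-06), and its other 2 probe sets, with differences of -1.78 ± 0.13 and -2.22 ± 0.15, passed too. PIK3CB, a catalytic subunit of PI3 kinase, fell by 1.79 ± 0.12, and the B cell adaptor PIK3AP1, which brings PI3 kinase to the membrane, fell by 1.21 ± 0.14. PIK3AP1 is also among the B cell markers read above, so its fall is not a separate observation. PPP2R5C, a regulatory subunit of protein phosphatase 2A, fell on all 4 of its probe sets, by 0.72 to 1.22. USP7, a deubiquitinase that acts on FOXO proteins, fell by 0.51 ± 0.09 on its brightest probe set. Another USP7 probe set fell by 0.71 ± 0.14, a call lost without wild-type replicate 2 or 3 (limma adjusted p = 0.0686 and 0.0588). Those with differences of -0.51 ± 0.15 and -0.42 ± 0.12 did not pass, and the rest were at background. The list holds activators and inhibitors of AKT alike, and members of both kinds fell. Without wild-type replicate 2 the count of 8 was 5.

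Genes known to be activated by FOXO factors went both ways. Of 35 measured, 8 fell, 3 rose and 24 did not pass, with a median of -0.01, and 7 were at background in all samples, RAG1 among them. TNFSF10, the death ligand TRAIL, gave 9.57, 9.51 and 9.56 in wild-type and 8.26, 7.98 and 8.14 in Pax5-deficient samples. It fell by 1.42 ± 0.10 log2 units (SE, 3 samples a group; limma adjusted p = 3.74e-05). On dimmer probe sets TNFSF10 fell by 1.31 ± 0.13 and 1.07 ± 0.16. The rest of its 7 probe sets did not pass. Those above background in all samples had differences of -0.21 ± 0.11 and 0.12 ± 0.08 (limma adjusted p = 0.327 and 0.446). CCNG2, an atypical cyclin of quiescent cells, fell by 1.30 ± 0.15, the mitophagy receptor BNIP3 by 1.17 ± 0.09 and the chemokine receptor CXCR4 by 0.77 ± 0.09. SESN1, a stress-induced inhibitor of mTORC1 signalling, had a mean of 8.04 ± 0.12 (SD) in wild-type and 9.50 ± 0.20 in Pax5-deficient samples, without overlap. It rose by 1.46 ± 0.12 (adjusted p = 0.000105) and by 1.42 ± 0.16 on another probe set. KLF2 and SOD2, named after their values were seen, rose by 1.91 ± 0.40 and 0.42 ± 0.10. The KLF2 call was lost without Pax5-deficient replicate 3 or wild-type replicate 2 (limma adjusted p = 0.0657 and 0.0793), and that of SOD2 without any 1 sample except Pax5-deficient replicate 3 (0.0699 to 0.104). The count of 8 was 4 without Pax5-deficient replicate 3 or wild-type replicate 2 or 3 and 5 without wild-type replicate 1, and that of 3 was 1 without wild-type replicate 2.

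Among 34 measured genes known to be bound and regulated by RUNX or ETS factors in blood cells, 8 fell, 2 rose and 24 did not pass, with a median of 0.03. EBF1, CD72, CD79B, LYN and BTK had the smallest adjusted p. All of these are also among the B cell markers read above, so their falls are not separate observations. SPI1 is on this list as well as among the other ETS factors. CD79B, which carries receptor signals into the B cell, gave 11.63, 11.58 and 11.33 in wild-type and 9.34, 9.07 and 9.26 in Pax5-deficient samples. LYN and BTK, kinases of that receptor, fell by 1.70 ± 0.11 and 0.87 ± 0.09 log2 units (SE, 3 samples a group; limma adjusted p = 2.92e-05 and 0.000372). The list holds several genes that PAX5 is also known to activate, CD72, CD79B and EBF1 among them. The genes that rose were MYB, by 0.70 ± 0.15, named after its values were seen, and CD8A, by 0.52 ± 0.12 on its brightest probe set. The other CD8A probe set rose by 1.22 ± 0.13 (limma adjusted p = 0.000416) and remained called with any 1 sample left out. MYB did not pass with wild-type replicate 1 or 3 left out (adjusted p = 0.0642 and 0.0517), and that of CD8A on its brightest probe set without Pax5-deficient replicate 3 or any wild-type replicate (0.0544 to 0.0912). Without wild-type replicate 1 or 3 none rose.

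Markers of other cells that express these factors were read beside them. None of 19 measured endothelial and none of 11 measured myeloid markers passed (10 and 5 at background in all samples), where 15.8% of named genes passed in either direction. The summed linear level of the endothelial list ran from 425 to 476 in wild-type and from 416 to 483 in Pax5-deficient samples, and that of the myeloid list from 213 to 238 and from 227 to 293. On mean log2 level the endothelial list ran from 3.97 to 4.00 in wild-type and from 4.02 to 4.05 in Pax5-deficient samples. The myeloid list ran from 4.09 to 4.21 and from 4.16 to 4.30. The endothelial list includes ERG, itself a member. Of 11 erythroid and thrombocyte markers 1 fell (TUBB1, by 0.71 ± 0.14, lost without wild-type replicate 2 or 3 at limma adjusted p = 0.0588 and 0.0532), and their summed level was 225 to 235 and 222 to 247. The other TUBB1 probe set, above background in all samples, had a difference of -0.14 ± 0.13 that did not pass. Of 14 T lineage markers CD247 rose by 2.27 ± 0.27 and CD8A as above, and CD3E fell by 0.51 ± 0.13, a call lost without any 1 sample except Pax5-deficient replicate 2 (adjusted p = 0.0657 to 0.14). Their summed level was 2879 to 3232 in wild-type and 2572 to 2680 in Pax5-deficient samples, and CD4 and CD28 were at background. The mean log2 level of the T lineage list went the other way, at 4.38 to 4.43 in wild-type and 4.51 to 4.56 in Pax5-deficient samples. A sum of linear values mostly follows the brightest probe sets, so it gives no direction for the list. Of 16 stromal markers VIM fell by 0.88 ± 0.11, from a mean of 10.39 to 9.52. COL1A2 rose by 0.50 ± 0.10 on its brightest probe set, a call lost without wild-type replicate 2 (limma adjusted p = 0.0511). It rose by 0.81 to 4.46 on 4 others, ranked dimmer over all 6 samples. The rise of 4.46 went from 4.05, 4.11 and 4.15 in wild-type to 8.44, 9.05 and 8.20 in Pax5-deficient samples. A rise of 3.68 went from background in wild-type samples to 7.11, 7.66 and 7.05. Both exceeded the brightest probe set in Pax5-deficient samples (mean 6.81), and the list levels given below leave them out. At background were 7 of the 16 stromal markers. The summed stromal level was 1566 to 1762 in wild-type and 970 to 1177 in Pax5-deficient samples, and it mostly followed VIM. The mean log2 level of the stromal list was 4.32 to 4.45 in wild-type and 4.34 to 4.47 in Pax5-deficient samples. All samples were given as the DT40 line, and the part of other cell types in the members' changes was not tested.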

How the data were processed

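RNA of 6 DT40 samples was measured on Affymetrix arrays for chicken. Per the submitters' processing notes the authors used RMA, with no version given. The deposited values are on the log2 scale. RMA shrinks differences of dim probes, so folds of weak signals are understated. Samples were grouped by title and genotype; the modification field reads as a knockout for wild-type samples too and was not used. The 96 AFFX controls were left out. Of 38439 probe sets tested, 27168 had 1 symbol, 177 several and 11094 none, and updating symbols through Entrez IDs to GRCg7b changed 0. Each of 13009 named genes was represented by its brightest probe set over the 6 samples. Limma 3.58.1 under R 4.3.3 fitted all probe sets tested (group as the only term, eBayes, two-sided) and adjusted by Benjamini-Hochberg over all of them. Results of named genes were read from this fit. Errors are limma's SE or, where stated, SD. A probe set was at background where every sample of a group lay at or under the array's 95% point of 689 virus probe sets. A fold to background is a bound.

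The members, lists and background rule were chosen with earlier results of these data known, and the within-sample comparison of probe sets after the values were seen. Named were all member probe sets, PAX5, up to 5 passing genes of each list by smallest adjusted p, 7 further paralogs whatever their result, and the 3 genes nearest to RUNX1 and to FOXO1; others are said to be chosen after their values were seen. Alternatives were quantile normalization, median centring, leaving out dim probe sets, a robust variance trend, the replicate number as a block, the mean of a gene's probe sets, and leaving out each sample. The fit was also run on simulated data with independent values, which hold no effect of clone or culture. No sequence is shown.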

Additional observations from a re-analysis of the deposited data

How the results depend on the processing

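Leaving out each sample in turn gave 2490 (without wild-type replicate 2) to 4172 called probe sets, against 4085. The 4 lower member probe sets and the lower genes FOXO1 and RUNX1 were called under every alternative run, with log2 differences of -2.57 to -2.18 for FOXO1 when 1 sample was left out. The higher call of CBFB was the fragile one. Its count of probe sets was 0 with median centring, 2 after quantile normalization, 0 with the replicate block and 0 to 1 without 1 sample. As a count of genes it was 0 with median centring, with the block and with the mean of probe sets, and 0 to 1 without 1 sample. The brightest CBFB probe set had a difference of 0.36 with median centring and 0.38 with the replicate block (limma adjusted p = 0.0596), and 0.34 to 0.46 without 1 sample. The second reached 0.37 under quantile scaling.

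Using the mean over a gene's probe sets, 1 other ETS factor, 2 forkhead factors, 3 RUNX cofactors and 5 upstream FOXO regulators fell, and 3 other forkhead factors and 2 other upstream FOXO regulators rose. Upstream FOXO regulators that rose numbered 1 without dim probe sets, 3 after quantile normalization and 1 with the replicate block. Without 1 sample, RUNX cofactors that fell numbered 3 to 8, upstream FOXO regulators 5 to 8 lower and 0 to 1 higher, FOXO-activated genes 4 to 8 lower and 1 to 3 higher, forkhead factors 1 to 2 higher, and RUNX or ETS targets 0 to 2 higher. Signs turned only where differences did not pass. The third CBFB probe set was at -0.0205 with median centring, at -0.0173 after quantile normalization, and between -0.0319 and 0.083 without 1 sample. With 1 sample left out, FOXO3 ran from -0.0194 to 0.21 and from -0.14 to 0.0799 on its dimmer probe sets. ETS1 ran from -0.27 to 0.0354 on its brightest, and from -0.0693 to 0.0214, -0.12 to 0.0852 and -0.16 to 0.0493 on its 3 dimmest. ERG ran from -0.0718 to 0.0488 on its dimmer probe set.

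Quantile normalization moved the split of called genes from 1267 lower and 782 higher to 1138 lower and 1059 higher. The labels do not say whether the shared replicate numbers pair the samples. Deviations from group means correlated weakly, at 0.12, 0.07 and -0.01, which cannot settle whether they do. With the block 2593 probe sets were lower and 1523 higher, and SIN3B lost its call (limma adjusted p = 0.0504). Samples number 3 per group, and values at background have no order.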
